A study of Mus musculus with 18 samples.

Results

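The response of AE9a cells to C16 was read from 6 RNA sequencing libraries, 3 of cells that had received C16 and 3 of cells that had received the solvent DMSO, out of 18 libraries in the series. Members were chosen by label alone, and all genes were examined. The cells were mouse bone marrow cells positive for cKit, the stem cell factor receptor that marks haematopoietic stem and progenitor cells and mast cells. AE9a is a truncated product of the fusion of RUNX1 with RUNX1T1 (AML1-ETO) and is known for causing leukaemia in mice. AE9a cells under another treatment, RE, made up 3 further libraries that shared the fit, and wild type (WT) cells under the same 3 treatments the other 9. The series concerns blocking of WDR5 and of MLL1. The labels do not state the target of C16 or of RE, a dose, a time, the vector or promoter of AE9a, or whether replicates came from separate animals or cultures, so p values may measure technical spread alone.

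WDR5 is a scaffold subunit of the MLL and SET1 complexes, which place methyl groups on lysine 4 of histone H3 at active promoters and enhancers. Progenitor cells divide quickly and need ribosomes, nucleotides and mitochondria for it, while maturing blood cells replace growth genes with products of their lineage: membrane and haemoglobin genes in red cells, proteases and histamine synthesis in mast cells, stored granule enzymes in neutrophils. Cytokine and Kit signals reach the nucleus partly through MAP kinases, whose activity is read from feedback inhibitors and immediate early genes.

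Levels are given as CPM, counts scaled to library size by TMM, and changes as the fitted log2 of C16 over DMSO ± its standard error with n = 3 libraries per group. A gene is said to have risen or fallen where its edgeR quasi-likelihood p, adjusted over all genes, was under 0.05. A change given as a number ± its error with no unit is on the log2 scale, and the error of a mean CPM or FPKM is the SD. The 6 libraries held 19493511 to 27207748 fragments each, and 3 fragments equalled 0.11 to 0.154 CPM. Runx1t1, part of the fusion, stood at 33.7, 46.4 and 38.03 CPM in DMSO replicates 1, 2 and 3 and 2.37, 4.09 and 0.206 CPM in C16 replicates 1, 2 and 3. In fragments these were 675, 1274 and 760 under DMSO and 47, 103 and 4 under C16, against 0 to 7 in the 9 WT libraries. The library labelled AE9a C16 replicate 3 thus lay within the WT range for this gene, which goes against its label, and every later mention of C16 replicate 3 means the library so labelled. Runx1t1 was also lower in C16 replicates 1 and 2 than in any DMSO library. AE9a RE replicates 1, 2 and 3 held 629, 1002 and 822 fragments of it. In all 3 C16 libraries, less of the transcript per cell and fewer cells with the fusion cannot be told apart. For C16 replicate 3, whether C16 lowered the transcript or the cells of that library differed from its label cannot be told apart either. Nanog, which the series text names, had 0 fragments in all 6 libraries. Kit, the gene behind the selection, was at 864, 1195 and 984 CPM under DMSO and 272, 314 and 216 CPM under C16. The marker lists of B cells, T and NK cells and stroma were low, summed over 14, 17 and 15 genes at no more than 99.0, 33.3 and 18.4 CPM in any library.

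The library labelled C16 replicate 3 stood apart. Over 10492 genes its root mean square log2 difference from C16 replicates 1 and 2 was 0.46 and 0.495, against 0.144 between those 2. Its distance from the DMSO libraries, 1.08 to 1.18, was above that of C16 replicates 1 and 2, 0.727 to 0.89. It lay nearer to the library labelled WT C16 replicate 2 (0.451) than to any AE9a library. Counts were therefore also taken without it. The numbers that rose were then 42 of 43 DNA replication, 29 of 29 spindle, 67 of 78 mitochondrial ribosomal and 50 of 53 splicing genes. The numbers that fell were 22 of 24 erythroid, 16 of 19 mast cell, 9 of 13 MAP kinase feedback and 17 of 26 immediate early genes.

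Genes that lost most of their transcripts far outnumbered genes that gained as much. Of 14704 genes tested, 4870 rose (33.1%) and 4875 fell (33.2%), so 9745 (66.3%) changed. Past 2-fold, 424 rose (2.88%) and 2172 fell (14.8%), and past 8-fold 4 rose (0.0272%) and 588 fell (4.0%). Without C16 replicate 3, 4748 of 15009 tested genes rose (31.6%) and 4974 fell (33.1%), 441 and 2155 of them past 2-fold. The median log2 change over all tested genes was 0.0027, with quartiles of −0.53 and 0.37. The 3 C16 and 3 DMSO libraries did not overlap for 10485 genes (71.3%), C16 being above for 5265 (35.8%) and below for 5220 (35.5%).

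Large falls were commoner among weakly expressed genes. Past 2-fold, 25.9% of the genes under 5 CPM in their higher group fell, 13.7% of those from 5 to 50 CPM and 7.73% of those over 50 CPM. For rises the shares were 5.21%, 3.06% and 1.02%. In a fit of all 18 libraries, where the spread was larger, the calls of Actb, Cox6a2, Cxcr4, Dnajb1, Dusp2, Egr1, Flt3, Ftl1, Ifngr1, ND1, Ncam1, Nrg2, Prtn3 and Spi1, all named further on, were lost (edgeR adjusted p of 0.067 to 0.279). The plot of change by level shows this as a long lower tail that narrows to the right.

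**Figure D1:**
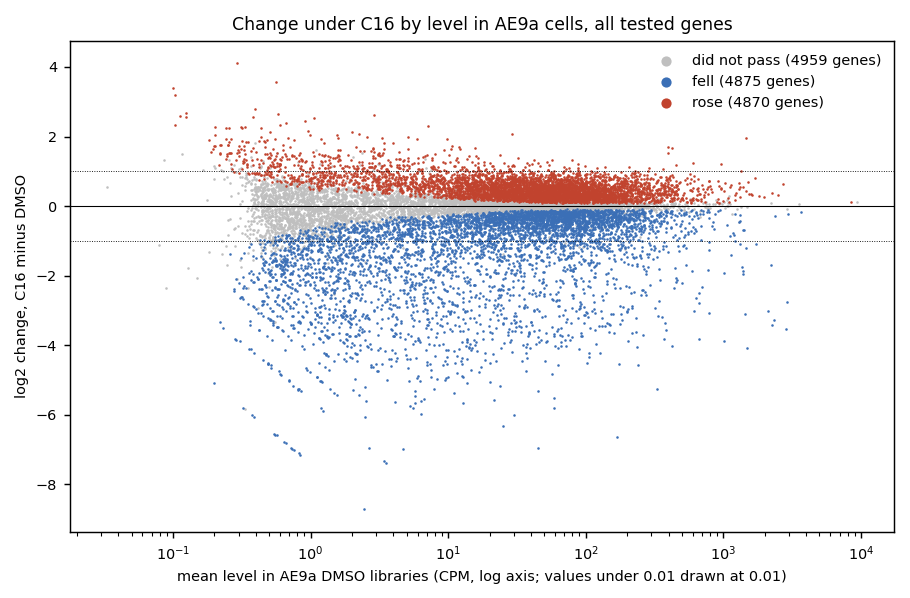
Fitted log2 change under C16 (vertical axis) against the mean DMSO level in CPM (horizontal log axis) for the 14704 tested genes of AE9a cells, 1 point each, with dotted lines at 2-fold. The 4875 genes that fell (blue) reach far lower than the 4870 that rose (red) reach upward.

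Genes of cell division and of nucleotide supply rose nearly together, by less than 2-fold for most members. In bulk libraries, changes within cells and a changed mix of cells cannot be told apart, for this and every later list. Of 43 DNA replication genes 42 rose and 1 fell (median log2 0.66), and of 29 spindle and kinetochore genes all 29 rose (median 0.79). Mcm5, a subunit of the helicase that unwinds DNA, stood at 239, 203 and 235 CPM in DMSO replicates 1, 2 and 3 and 428, 433 and 436 CPM in C16 replicates 1, 2 and 3 (log2 0.94 ± 0.08, adjusted p = 7.0e-06). Each C16 library was above each DMSO library, and the 3 C16 values lay close together. Aurka, the mitotic kinase Aurora A, rose from 58.8 ± 5.74 to 119 ± 7.76 CPM (1.02 ± 0.07), and Kif20a, a kinesin of cytokinesis, by 0.9999 ± 0.06. Rfc2, a subunit of the clamp loader, was the replication gene that fell (−0.52 ± 0.05).

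Purine and pyrimidine synthesis rose in 24 of 25 genes, with a median of 0.76. Rrm2, the small subunit of ribonucleotide reductase that makes deoxyribonucleotides, stood at 253, 198 and 229 CPM under DMSO and 465, 475 and 429 CPM under C16 (log2 1.01 ± 0.08, adjusted p = 7.9e-06). Gart, a trifunctional purine enzyme, rose by 0.85 ± 0.04 and Prps1, which makes the ribose phosphate donor, by 0.86 ± 0.05. Impdh1, an enzyme of guanine nucleotide synthesis, fell (−0.31 ± 0.07). In the list of serine, one-carbon and amino acid synthesis 12 of 17 tested genes rose and 1 fell. Phgdh, the first enzyme of serine synthesis, was at 216, 194 and 207 CPM under DMSO and 446, 423 and 464 CPM under C16 (log2 1.11 ± 0.06, adjusted p = 1.5e-06), its lowest C16 library standing above its highest DMSO library. Shmt2 and Mthfd2, mitochondrial folate enzymes, rose by 0.91 ± 0.05 and 1.0025 ± 0.07, while Asns, asparagine synthetase, fell (−0.56 ± 0.05).

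DNA repair genes rose in 28 of 40 cases and fell in 3 (median 0.42). Exo1, an exonuclease of mismatch and break repair, rose by 0.82 ± 0.05 and Fancd2, of the Fanconi pathway, by 0.78 ± 0.05. The 3 that fell were Fance, Fancl and Xrcc5, which encodes the Ku80 subunit of end joining and was at 22.9, 25.7 and 22.7 CPM under DMSO and 8.53, 8.98 and 6.69 CPM under C16 (−1.56 ± 0.11).

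Mitochondrial genes rose across several lists. Of 78 mitochondrial ribosomal protein genes 68 rose and 1 fell (median 0.55), of 83 nuclear genes of the respiratory chain 67 rose and 5 fell (median 0.34), of 23 import genes 20 rose and 0 fell (median 0.58), and of 18 citric acid cycle genes 17 rose and 0 fell (median 0.47). Summed over its members, the mitochondrial ribosomal list stood at 141%, 143% and 145% of its DMSO mean in the 3 C16 libraries. Cyc1, cytochrome c1, was at 102, 96.8 and 104 CPM under DMSO and 188, 186 and 197 CPM under C16 (log2 0.92 ± 0.04, adjusted p = 1.3e-06). Idh2, mitochondrial isocitrate dehydrogenase, rose by 0.99 ± 0.05 and Tomm40, the pore of the outer membrane, by 0.86 ± 0.05. Among the 6 that fell in the first 2 lists were Mrpl52 (−0.83 ± 0.10), Ndufa1 (−0.67 ± 0.09) and the muscle form Cox6a2 (−1.55 ± 0.46), the last low in every library. The 13 protein genes of the mitochondrial genome, a list added after the count tables had been read, rose in 8 cases and fell in 0 (median 0.28). The count of 8 was 5 without C16 replicate 1 and 5 without DMSO replicate 2. ND1 stood at 2287, 2115 and 2356 CPM under DMSO and 2777, 2787 and 3186 CPM under C16 (0.37 ± 0.07).

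Genes that make, fold and clear proteins rose as well, but those of the cytosolic ribosome itself were split. Translation initiation factors rose in 35 of 45 genes and fell in 2, aminoacyl-tRNA synthetases in 19 of 21 and 0, splicing factors in 50 of 53 and 0, subunits of RNA polymerases I and III in 14 of 17 and 1, and proteasome genes in 34 of 42 and 2. Their medians were 0.44, 0.43, 0.48, 0.39 and 0.36. By contrast 25 of 79 cytosolic ribosomal protein genes rose and 17 fell, shares of 31.6% and 21.5% beside 33.1% and 33.2% of all genes, with a median of 0.05. No member of that list changed by 2-fold, the range being −0.49 to 0.48. Rpl37a fell from 390.1 ± 23.1 to 278 ± 16.5 CPM, and Rps2 rose from 1467 ± 56.1 to 1996 ± 42.7 CPM. Ribosomal protein genes have many near-identical processed copies, so these values are uncertain.

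Hspd1 and Hspe1 encode the chaperonin and co-chaperonin that fold proteins in mitochondria. Hspd1 (chromosome 1, 55116992 to 55127402, GRCm39) stood at 634, 554 and 604 CPM in DMSO replicates 1, 2 and 3 and 1472, 1437 and 1341 CPM in C16 replicates 1, 2 and 3 (log2 1.25 ± 0.07, adjusted p = 1.6e-06), a 2.37-fold rise of the mean with no overlap. Hspe1, its neighbour on the opposite strand, was at 134, 124 and 124 CPM under DMSO and 235, 239 and 206 CPM under C16 (0.83 ± 0.07). Exons of the pair overlap and counting did not use strand, so their fragments cannot be fully told apart, and the same holds for Dusp6, Tet1 and Gata1 and their opposite-strand partners. In all, 18 of 23 cytosolic and mitochondrial chaperone genes rose and 2 fell. The 2 that fell were the stress-inducible Hspa1b (−0.63 ± 0.20) and Dnajb1 (−0.22 ± 0.07), and the call of Hspa1b was lost in 4 alternatives, among them without DMSO replicate 1 and without DMSO replicate 3 (edgeR adjusted p up to 0.308). In the endoplasmic reticulum, 11 of 18 chaperone and stress genes rose and 3 fell, with Calr, calreticulin, at 1783, 1648 and 1661 CPM under DMSO and 2991, 2962 and 2887 CPM under C16 (0.80 ± 0.04).

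Host genes of small nucleolar RNAs, which guide the modification of ribosomal RNA, rose in 12 of 15 cases and fell in 1. Snhg5 was at 41.6, 37.4 and 36.5 CPM under DMSO and 88.1, 87.5 and 84.7 CPM under C16 (1.17 ± 0.06), and Snhg12 and Snhg3 rose by 1.16 ± 0.14 and 1.13 ± 0.09. Myc, a driver of ribosome and nucleotide genes, stood at 206, 198 and 176 CPM under DMSO and 268, 284 and 322 CPM under C16 (log2 0.59 ± 0.09, adjusted p = 2.5e-04). Its antagonists Mxd4 and Mxd1, which compete for the partner MAX, fell: Mxd4 from 118 ± 19.1 to 28.6 ± 1.48 CPM (−2.04 ± 0.11) and Mxd1 changed by −1.52 ± 0.11. The MYC and MAX network as a list was mixed, with 7 of 14 genes up and 5 down.

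Replication-dependent histones did not rise with the replication genes: 0 of 24 tested members rose and 10 fell (median −0.64). H1f2, a linker histone, stood at 33.5, 36.8 and 50.99 CPM under DMSO and 11.96, 13.6 and 8.9 CPM under C16 (−1.81 ± 0.21), and DMSO replicate 3 was its highest library. Summed over 67 histone genes of the table, levels were 88.9, 95.1 and 119 CPM under DMSO and 48.5, 52.4 and 37.6 CPM under C16. Most such transcripts lack a poly(A) tail, and the labels do not state the RNA selection.

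**Figure D2:**
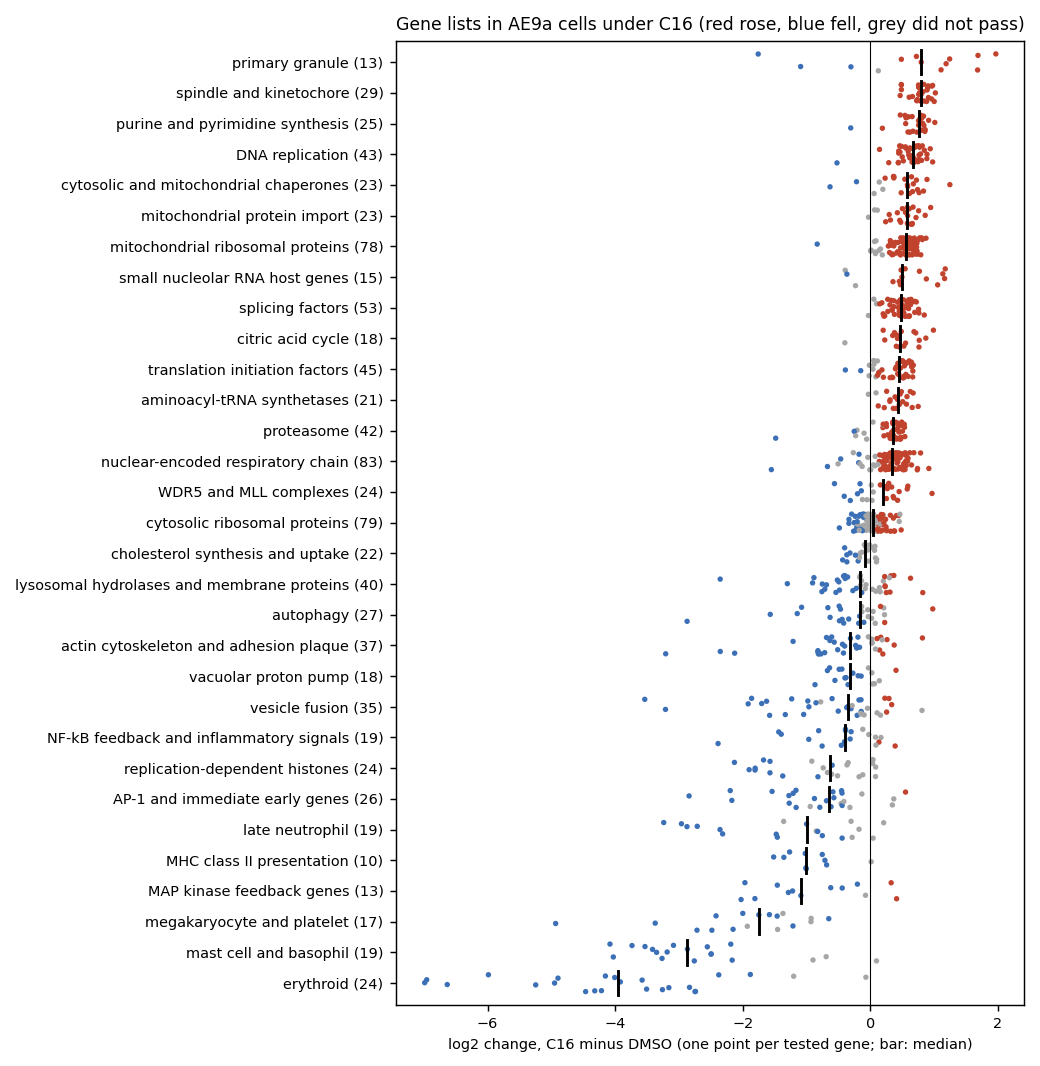
Fitted log2 change under C16 of each tested member (horizontal axis) for 31 gene lists (rows, with the number tested in brackets); red members rose, blue fell, grey did not pass, and the black bar is the list median. All 29 spindle genes lie right of 0, and erythroid and mast cell genes spread far to the left.

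Other metabolic lists moved less evenly. Among 23 glycolysis genes 12 rose (52.2%) and 5 fell (21.7%), beside 33.1% and 33.2% of all genes. Slc2a3, a glucose transporter, was at 246, 305 and 259 CPM under DMSO and 53.8, 65.6 and 27.7 CPM under C16 (−2.46 ± 0.26). Aldoc, an aldolase, changed by −1.75 ± 0.09. Gapdh was at 31.1, 24.8 and 30.7 CPM under DMSO and 124, 197 and 43.4 CPM under C16, a wide spread for a gene with many near-identical copies, and its call was lost on leaving out any library other than C16 replicate 3. Of 22 cholesterol genes 0 rose and 7 fell (31.8%, near the 33.2% of all genes), none by 2-fold (lowest −0.43). Srebf2, the regulator of that pathway, fell from 497 ± 3.59 to 368 ± 9.98 CPM. The count of 7 was 11 without C16 replicate 2. Elovl6, which lengthens fatty acids, rose (1.14 ± 0.08) while Scd1, a desaturase, varied under C16 at 46.4, 67.3 and 26.8 CPM (−0.86 ± 0.27). In the list of glutathione, peroxide and pentose phosphate enzymes 15 of 28 genes rose (53.6%) and 8 fell (28.6%), with a median of 0.20. Its lowest member Nqo1, a quinone reductase and NRF2 target, was at 18.4, 17.3 and 27.1 CPM under DMSO and 4.34, 4.17 and 3.91 CPM under C16 (−2.33 ± 0.26).

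Genes of the lysosome, its proton pump and autophagy leaned downward. Of 18 proton pump genes 12 fell and 1 rose (median −0.31), of 40 lysosomal genes 19 fell and 9 rose (median −0.16), and of 27 autophagy genes 15 fell and 3 rose (median −0.17). Optn, a receptor that brings cargo to autophagosomes, stood at 85.9, 101 and 84.1 CPM in DMSO replicates 1, 2 and 3 and 12.9, 15.97 and 7.82 CPM in C16 replicates 1, 2 and 3 (log2 −2.87 ± 0.20, adjusted p = 3.3e-06). No C16 library reached the lowest DMSO level. Sqstm1, the receptor p62, fell from 384 ± 34.3 to 174 ± 6.5 CPM (−1.15 ± 0.07) and Ulk2, a kinase that starts autophagy, changed by −1.08 ± 0.08. Ids, iduronate sulfatase, was at 140.4, 182 and 164 CPM under DMSO and 36.9, 40.2 and 17.7 CPM under C16 (−2.35 ± 0.26), and Atp6v0a1, a membrane subunit of the pump, at 226, 227 and 229 CPM under DMSO and 120.4, 115 and 138 CPM under C16 (−0.87 ± 0.06). Against the trend, Atg12 rose by 0.98 ± 0.06 and Scarb2, a lysosomal membrane protein, by 0.82 ± 0.11.

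Most genes of the MAP kinase feedback list fell, which holds feedback inhibitors and also Etv4, Etv5 and Phlda1. Of 13 such genes tested 10 fell and 2 rose (median −1.09), and summed over the list C16 libraries held 40.1%, 44.0% and 35.4% of the DMSO mean. Dusp6, a phosphatase of ERK, stood at 100.5, 131 and 111 CPM in DMSO replicates 1, 2 and 3 and 28.6, 33.1 and 22.1 CPM in C16 replicates 1, 2 and 3 (log2 −2.03 ± 0.15, adjusted p = 4.5e-06). Spred1, which blocks RAF activation, was at 293, 376 and 349 CPM under DMSO and 99.2, 112 and 78.4 CPM under C16 (−1.81 ± 0.15). Spry1 and Spry2, relatives of Spred1, were the 2 that rose, by 0.41 and 0.33, and Spry1 lost its call in 8 alternatives.

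Immediate early genes fell in 18 of 26 cases and rose in 1 (median −0.65). Egr1, an early response zinc finger gene, was at 43.8, 37.2 and 65.3 CPM under DMSO and 12.7, 12.3 and 7.15 CPM under C16 (−2.17 ± 0.24), with DMSO replicate 3 highest and C16 replicate 3 lowest. Nr4a3, an orphan nuclear receptor, changed by −1.54 ± 0.28, and Dusp2 was the member that rose (0.55 ± 0.09). Fosb overlapped between groups and was high in DMSO replicate 3 alone, at 2.54, 3.13 and 28.97 CPM under DMSO and 3.43, 1.15 and 0.206 CPM under C16. Inhibitors and targets of NF-kB fell in 12 of 19 cases and rose in 2, among them Tnfaip3, which encodes the deubiquitinase A20, at 62.8, 82.4 and 76.4 CPM under DMSO and 25.04, 24.2 and 32.9 CPM under C16 (−1.44 ± 0.13).

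Cell cycle inhibitors of the Cdkn2 locus fell strongly. Cdkn2a (chromosome 4, 89192710 to 89212856), which encodes p16 and p19ARF, stood at 31.9, 45.4 and 52.8 CPM in DMSO replicates 1, 2 and 3 and 3.58, 4.33 and 0.154 CPM in C16 replicates 1, 2 and 3 (log2 −3.95 ± 0.48, adjusted p = 7.3e-05). C16 replicate 3 held almost none, and without it the change was −3.45. Its neighbour Cdkn2b, for p15, was at 4.74, 6.08 and 7.31 CPM under DMSO and 0.555, 0.675 and 0 CPM under C16 (−3.79 ± 0.48). Ccnd2, cyclin D2, also fell, from 793 ± 95.5 to 329 ± 28.8 CPM (−1.27 ± 0.10), and the G1 list as a whole was mixed, with 12 of 26 genes up and 10 down. Bbc3, a p53 target that promotes apoptosis, fell from 25.5 ± 2.56 to 9.32 ± 1.03 CPM. Among 21 p53 targets 8 fell (38.1%) and 4 rose (19.0%), and in the BCL2 family 8 of 17 fell (47.1%) and 4 rose (23.5%), including Pmaip1 upward (0.63 ± 0.09), beside 33.2% and 33.1% of all genes. In the fit of all 18 libraries 2 p53 targets and 4 BCL2 family genes fell.

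In the Notch list 10 of 19 genes fell and 3 rose. Hes1, a direct Notch target, was at 36.6, 46.7 and 31.9 CPM under DMSO and 3.58, 4.97 and 0.514 CPM under C16 (−3.62 ± 0.42), and Nrarp, a Notch feedback gene, changed by −2.27 ± 0.21. The Wnt list held 9 genes up and 9 down of 26, 34.6% each, near the 33.1% and 33.2% of all genes. Axin2, a feedback target of beta-catenin, stood at 12.5, 15.6 and 13.1 CPM under DMSO and 0.959, 1.39 and 0.463 CPM under C16 (−3.82 ± 0.25), and Znrf3, which removes Wnt receptors, rose by 1.26 ± 0.11.

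Genes of the cell surface, cytoskeleton and secretion fell in larger shares than they rose. In the actin and adhesion list 24 of 37 fell and 7 rose, in vesicle fusion 22 of 35 and 4, among Rab GTPases 25 of 52 and 8, among integrins 11 of 19 and 4, among tetraspanins 11 of 20 and 6, and among ion channels 29 of 55 and 11, beside 33.2% and 33.1% of all genes. Rab27b and Sytl2, a GTPase and its effector in granule release, were at 333, 444 and 366 CPM under DMSO and 39.6, 50.01 and 6.64 CPM under C16 (−3.56 ± 0.54) and at 51.8, 80.3 and 56.5 CPM under DMSO and 5.25, 9.85 and 0.514 CPM under C16 (−3.54 ± 0.52). Gsn, the actin-severing gelsolin, was at 362, 495 and 454 CPM under DMSO and 90.5, 96.6 and 69.4 CPM under C16 (−2.35 ± 0.15). Itga9, an integrin subunit, changed by −4.33 ± 0.46 and Itgb7 changed by −2.36 ± 0.15, while Itgb5 rose by 1.37 ± 0.14. These lists include genes that mast cells and platelets use, whose marker levels are given further on, and the part of those cells in the result was not tested.

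Cytokine receptors fell in 18 of 43 cases (41.9%) and rose in 8 (18.6%), beside 33.2% and 33.1% of all genes. Il1rl1, the receptor of interleukin 33, stood at 1957, 2638 and 2230.5 CPM in DMSO replicates 1, 2 and 3 and 268, 340.3 and 31.1 CPM in C16 replicates 1, 2 and 3 (log2 −3.41 ± 0.67, adjusted p = 0.0015). Csf2rb2, a receptor subunit for interleukin 3, was at 1705, 2375 and 2217 CPM under DMSO and 304, 364 and 105 CPM under C16 (−3.03 ± 0.39), and Il9r changed by −3.87 ± 0.43. Kit changed by −1.92 ± 0.16, with no overlap between groups. Il1rl1 is also in the mast cell marker list given further on, and Kit marks mast cells. The part of those cells in the receptor result was not tested. Receptors that rose included Flt3, a receptor of early progenitors, at 15.6, 12.2 and 13.4 CPM under DMSO and 22.7, 20.5 and 30.3 CPM under C16 (0.84 ± 0.15), and Ifngr1 (0.94 ± 0.11). Of 32 chemokine and chemokine receptor genes tested 15 fell (46.9%) and 2 rose (6.25%), with a median of −0.85. Cxcr4, the chemokine receptor that retains cells in the marrow, was 1 of the 2, rising from 75.8 ± 4.63 to 125 ± 19.8 CPM. In the eicosanoid list 6 of 23 genes rose (26.1%) and 8 fell (34.8%), beside 33.1% and 33.2% of all genes. Alox5, 5-lipoxygenase, was at 316, 390.4 and 331 CPM under DMSO and 89.2, 104 and 41.8 CPM under C16 (−2.14 ± 0.27). Class II antigen presentation genes fell in 9 of 10 cases (median −1.01), with H2-Ab1 at 63.9, 82.1 and 86.97 CPM under DMSO and 37.05, 36.8 and 41.1 CPM under C16 (−1.02 ± 0.10). Dendritic cell markers, 2 of which are in the class II list, fell in 7 of 10 cases and rose in 2 (median −0.89), their sum being 528 to 582 CPM under DMSO and 346 to 486 CPM under C16. Endothelial markers fell in 6 of 9 cases, or 3 in the fit of all 18 libraries, with sums of 139 to 166 and 97.1 to 111 CPM. The part of such cells in the class II result was not tested.

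Erythroid markers had the lowest median of the 78 lists. Of 24 genes tested 22 fell and 0 rose (median −3.96), and their summed level went from 990.1 to 1262 CPM in the DMSO libraries to 90.4, 84.6 and 30.8 CPM in the C16 libraries. Ermap, an erythroid membrane protein gene (chromosome 4, 119032654 to 119047210), stood at 45.3, 47.1 and 42.1 CPM in DMSO replicates 1, 2 and 3 and 0.555, 0.477 and 0 CPM in C16 replicates 1, 2 and 3 (log2 −6.95 ± 0.33, adjusted p = 1.4e-06). Car1, carbonic anhydrase 1, was at 154, 191 and 161 CPM under DMSO and 2.22, 2.3 and 0.412 CPM under C16 (log2 −6.63 ± 0.31, adjusted p = 1.4e-06), 102-fold lower on the means. Klf1, a master regulator of red cell genes, was at 13.9, 14.1 and 12.5 CPM under DMSO and 1.11, 0.993 and 0.36 CPM under C16 (−4.01 ± 0.26). In bulk libraries, fewer cells of a type and less RNA per cell cannot be told apart, here as in the other lists.

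Mast cell and basophil markers fell in 16 of 19 cases and rose in 0 (median −2.87). Their sum was 13570.0 to 18479 CPM under DMSO and 2329, 2957 and 415 CPM in C16 replicates 1, 2 and 3, that is 14.8%, 18.8% and 2.64% of the DMSO mean. Hdc, which makes histamine (chromosome 2, 126435579 to 126465942), stood at 1403, 1697 and 1351 CPM in DMSO replicates 1, 2 and 3 and 106, 125 and 31.9 CPM in C16 replicates 1, 2 and 3 (log2 −4.08 ± 0.42, adjusted p = 2.8e-05). Cma1, a chymase, was at 2359, 3648 and 2492 CPM under DMSO and 291, 424 and 18.5 CPM under C16 (−3.53 ± 0.83), and Gzmb, granzyme B, at 319, 474 and 473 CPM under DMSO and 25.2, 49.9 and 1.34 CPM under C16 (−4.03 ± 0.77). C16 replicate 3 was the lowest library for all 3 genes. Without it the counts of both lists were the same.

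Platelet markers fell in 12 of 17 cases and eosinophil markers in 7 of 9, with 0 rising in both. Gp5, a platelet glycoprotein, was at 29.8, 30.7 and 31.4 CPM under DMSO and 3.33, 4.45 and 0.823 CPM under C16 (−3.37 ± 0.35). Eosinophil genes already differed among the DMSO libraries: Epx, eosinophil peroxidase, was at 114, 68.6 and 28.1 CPM under DMSO and 7.17, 7.86 and 11.5 CPM under C16 (−2.99 ± 0.46), and Prg2 at 152, 89.2 and 32.2 CPM under DMSO and 12.1, 15.01 and 13.1 CPM under C16 (−2.76 ± 0.48).

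Lists of early and late neutrophil genes moved apart. Of 13 genes of the primary granule list 9 rose and 3 fell (median 0.80). Of 19 late neutrophil genes 0 rose and 12 fell (median −0.9999). Primary granules are made at the promyelocyte stage. The primary granule list also holds genes of other kinds, among them Calr, the endoplasmic reticulum chaperone given above, whose change of 0.80 is the list median. Mpo, myeloperoxidase (chromosome 11, 87684610 to 87695238), stood at 1516, 1416 and 1438 CPM in DMSO replicates 1, 2 and 3 and 5371, 5075 and 6628 CPM in C16 replicates 1, 2 and 3 (log2 1.97 ± 0.10, adjusted p = 1.4e-06). Prtn3 and Ctsg, serine proteases of the same granule, rose by 1.68 ± 0.07 and 1.69 ± 0.08. On the late side Ltf, lactoferrin, was at 246, 226 and 184 CPM under DMSO and 38.4, 35.03 and 15.7 CPM under C16 (−2.87 ± 0.30) and Cd177, a neutrophil surface protein, at 110.4, 116 and 117 CPM under DMSO and 14.4, 12.9 and 16.98 CPM under C16 (−2.96 ± 0.11). Members of the early list that fell included Serpinb1a, a protease inhibitor, and Srgn, the proteoglycan serglycin, at −1.76 ± 0.16 and −1.09 ± 0.08. Serglycin is also stored by mast cells.

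Transcription factors of different lineages moved in different directions. Gata1 and Gata2, which act in the erythroid, platelet and mast cell lines, stood at 56.8, 67.7 and 64.003 CPM under DMSO and 10.5, 12.5 and 2.26 CPM under C16 (−2.87 ± 0.39) and at 615, 791 and 603 CPM under DMSO and 143, 159 and 54.7 CPM under C16 (−2.49 ± 0.33). Cebpa, the factor of granulocyte commitment, rose from 87.5 ± 3.49 to 188 ± 21.6 CPM (1.11 ± 0.08), and Spi1, for PU.1, from 183 ± 10.1 to 235 ± 17.1 CPM (0.36 ± 0.06). Hlf, a stem cell factor, rose by 1.22 ± 0.17, and Cd34, a progenitor surface marker, by 0.84 ± 0.09. Runx1 fell from 341 ± 39.2 to 139 ± 8.04 CPM (−1.29 ± 0.10). Over all 39 factors 19 fell and 11 rose. Monocyte markers were mostly not called, with 6 of 20 up (30.0%) and 1 down, and the 6 were 3 without C16 replicate 1 and 3 without DMSO replicate 2. Of 18 stem and early progenitor genes 6 rose (33.3%) and 5 fell (27.8%), beside 33.1% and 33.2% of all genes. The 5 that fell did so past 2-fold, Kit among them, and the list median was −0.12.

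Promoters of lists that moved together were searched for 7 short motifs on both strands, in RefSeq windows from 250 bases before to 50 after the start of a gene (build GRCm38.p6, not the build of the count tables). Of 14704 tested genes 11066 had a window. The letters AGATAA, which GATA factors bind, stood in 7 of the 16 erythroid windows and 7 of the 17 mast cell windows, beside 6.84% of the windows of tested genes and 11.4% of all 27025 windows. Genes that fell past 8-fold held them in 61 of 433 windows, or 14.1%. Rising lists varied, with 11 of 69 windows for mitochondrial ribosomal proteins, 3 of 20 for nucleotide synthesis and 4 of 47 for splicing factors. DNA replication had 2 of 35 and the primary granule list 0 of 10. Genes that rose past 2-fold held the letters in 15 of 276 windows, or 5.4%. The letters ATTGG, the CCAAT box, stood in 20 of 35 DNA replication windows, and also in 10 of 16 erythroid and 5 of 9 MAP kinase feedback windows of the falling lists, beside 38.6% of the windows of tested genes. The E-box CACGTG stood in 0 erythroid, 0 mast cell and 6 of 22 immediate early windows of the falling lists. Of rising lists, 5 of 20 nucleotide synthesis and 5 of 69 mitochondrial ribosomal windows held it, beside 9.82% of the windows of tested genes. The RUNX letters TGTGGT stood in 8 of 17 mast cell, 5 of 16 erythroid and 0 of 22 immediate early windows. They stood in 4 of 10 primary granule and 6 of 35 DNA replication windows, beside 13.5% of the windows of tested genes. The CACCC, CRE and AP-1 motifs are not reported here. Matches are a description of letters, with no binding measured here.

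The windows of Epor, Cpa3 and Ms4a2 are shown as examples of falling lineage genes that hold AGATAA, and that of Mcm5 as a rising replication gene with 3 CCAAT boxes. Capitals mark the motif on either strand.
Epor (chr9:21963527-21963826, minus strand): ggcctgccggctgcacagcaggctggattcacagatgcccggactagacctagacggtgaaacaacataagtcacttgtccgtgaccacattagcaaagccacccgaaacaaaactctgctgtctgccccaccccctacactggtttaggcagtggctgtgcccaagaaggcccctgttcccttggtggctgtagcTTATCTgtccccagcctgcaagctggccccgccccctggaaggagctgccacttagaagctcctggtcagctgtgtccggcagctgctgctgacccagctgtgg
Cpa3 (chr3:20242132-20242431, minus strand): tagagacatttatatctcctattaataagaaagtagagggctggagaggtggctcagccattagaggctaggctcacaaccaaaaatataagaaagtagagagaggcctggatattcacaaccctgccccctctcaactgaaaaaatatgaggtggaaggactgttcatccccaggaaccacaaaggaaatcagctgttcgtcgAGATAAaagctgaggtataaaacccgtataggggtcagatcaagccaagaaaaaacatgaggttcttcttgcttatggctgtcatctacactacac
Ms4a2 (chr19:11623670-11623969, minus strand): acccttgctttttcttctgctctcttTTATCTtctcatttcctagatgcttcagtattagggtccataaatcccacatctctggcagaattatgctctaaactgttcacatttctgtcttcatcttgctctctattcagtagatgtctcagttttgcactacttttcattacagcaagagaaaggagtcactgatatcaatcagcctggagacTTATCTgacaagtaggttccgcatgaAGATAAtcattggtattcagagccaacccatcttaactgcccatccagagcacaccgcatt
Mcm5 (chr8:75109259-75109558, plus strand): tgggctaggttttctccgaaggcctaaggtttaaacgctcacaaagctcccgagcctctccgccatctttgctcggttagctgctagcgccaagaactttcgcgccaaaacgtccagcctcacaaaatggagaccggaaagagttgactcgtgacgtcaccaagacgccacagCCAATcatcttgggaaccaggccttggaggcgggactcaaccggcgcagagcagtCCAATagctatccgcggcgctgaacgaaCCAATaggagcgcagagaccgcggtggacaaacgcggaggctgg

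Epor, the erythropoietin receptor, holds the motif once, starting 54 bases before its start site, and was at 11.2, 14.6 and 12.9 CPM under DMSO and 1.11, 1.87 and 0.103 CPM under C16 (−3.58 ± 0.43). Ms4a2, the beta chain of the high-affinity IgE receptor, holds it 3 times and was at 715, 921 and 731 CPM under DMSO and 115, 123 and 40.4 CPM under C16 (−3.09 ± 0.36). Cpa3, mast cell carboxypeptidase, was chosen after its values were seen, holds it once and changed by −2.76 ± 0.60 on the log2 scale (2499.7, 3271 and 2941 CPM under DMSO and 533, 671 and 80.9 CPM under C16).

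Genes that write and erase chromatin marks mostly changed by under 2-fold. Of 24 genes of the WDR5 and MLL complexes 13 rose and 6 fell, none by 2-fold. Dpy30, a subunit of all MLL and SET1 complexes, was at 39.8, 37.7 and 41.8 CPM under DMSO and 70.6, 82.3 and 79.9 CPM under C16 (log2 0.97 ± 0.07, adjusted p = 3.1e-06). Wdr5 was at 137, 134 and 137 CPM under DMSO and 164, 167 and 182 CPM under C16 (0.33 ± 0.04), and Kmt2a, for MLL1, at 144, 152 and 144 CPM under DMSO and 143, 138 and 142 CPM under C16 (log2 −0.05 ± 0.04, adjusted p = 0.29). Kdm5b, a demethylase of lysine 4 on histone H3, fell from 97.2 ± 7.99 to 32.5 ± 2.12 CPM (−1.58 ± 0.08), and Kdm6b, a demethylase of lysine 27, changed by −1.43 ± 0.09. Tet1, which oxidises methylated cytosine, was at 5.59, 5.1 and 4.7 CPM under DMSO and 13.4, 13.7 and 13.3 CPM under C16 (log2 1.39 ± 0.12, adjusted p = 8.5e-06), with 3 nearly equal C16 libraries. Prmt1, an arginine methyltransferase, rose from 145 ± 7.34 to 274 ± 1.21 CPM.

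HOX genes stood low, with 5 of 14 tested up and 5 down, 35.7% each, near the 33.1% and 33.2% of all genes. Those that fell were Hoxb13 and 4 of the HOXC cluster. Hoxb13, of the posterior HOXB end, was at 2.59, 3.57 and 2.9 CPM under DMSO and 0.101, 0.159 and 0.0514 CPM under C16 (−4.74 ± 0.29), and Hoxc4 at 7.68, 10.7 and 5.7 CPM under DMSO and 0.757, 0.397 and 0.0514 CPM under C16 (−4.31 ± 0.45). The count of 5 rises was 3 without DMSO replicate 2.

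Several of the largest changes were in genes known from other tissues. Amot, which binds YAP, stood at 7.73, 5.46 and 8.31 CPM in DMSO replicates 1, 2 and 3 and 32.3, 29.9 and 43.4 CPM in C16 replicates 1, 2 and 3 (log2 2.31 ± 0.20, adjusted p = 9.7e-06), and Zdhhc2, a palmitoyl transferase, at 3.34, 2.55 and 2.85 CPM under DMSO and 18.6, 19.1 and 15.9 CPM under C16 (2.63 ± 0.15). Sfmbt2, a Polycomb-group gene, rose by 2.54 ± 0.19, Nrg2, a neuregulin, by 1.98 ± 0.13 and Dio2, a thyroid hormone deiodinase, by 1.94 ± 0.22. All 3 C16 libraries of each were above all 3 DMSO libraries. Ncam1, Myo18b and Fn1 rose too, but by more in C16 replicate 3: Fn1, fibronectin, was at 8.08, 7.98 and 22.3 CPM under C16 and 3.34, 2.44 and 4.15 CPM under DMSO.

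On the falling side, Kcnj5, a potassium channel, stood at 23.7, 26.1 and 25.6 CPM in DMSO replicates 1, 2 and 3 and 0.353, 0.357 and 0.206 CPM in C16 replicates 1, 2 and 3 (log2 −6.32 ± 0.18, adjusted p = 4.9e-07). Tenm4, a teneurin of the nervous system, was at 55.8, 66.1 and 55.8 CPM under DMSO and 1.21, 1.67 and 0.103 CPM under C16 (−5.82 ± 0.34), and Cacna1c, a calcium channel, at 10.97, 11.8 and 10.1 CPM under DMSO and 0.101, 0.477 and 0.154 CPM under C16 (−5.36 ± 0.32). Adra2a, an adrenergic receptor, changed by −5.57 ± 0.29, Atp1b2, a sodium pump subunit, changed by −6.01 ± 0.30 and Dbx2, a homeobox gene of the spinal cord, changed by −5.81 ± 0.39. Kcnj5 was low in all 3 C16 libraries, whereas Tenm4 and Atp1b2 were lowest by far in C16 replicate 3.

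In 91 genes with at least 10 DMSO fragments no fragment was found in any C16 library, and in 7 genes the reverse held. Rxrg, a retinoid X receptor, was at 1.05, 0.765 and 0.701 CPM under DMSO, at least 17.8-fold lower under C16 when 3 fragments over the C16 group are taken as the limit. Gbx1, a homeobox gene, and Rspo3, a Wnt enhancer, were each at least 15.9-fold lower.

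Some falling genes lay side by side. Among tested genes in chromosome order, 51 runs of at least 4 neighbours all fell past 2-fold, 240 genes in all, beside 1 run that rose. The runs were looked for after the changes had been seen, with no test. The longest, 8 genes of the class II region from H2-Ob to Gpsm3 (chromosome 17, 34457879 to 34810728, GRCm39), had a median log2 change of −1.29. A run of 7 held Hoxc9, Hoxc6, Hoxc5 and Hoxc4 (chromosome 15, median −3.85). Further runs held Padi1, Padi2 and Padi3, peptidylarginine deiminases, on chromosome 4 (6 genes, median −3.68), the tryptase genes Tpsab1, Tpsb2 and Tpsg1 on chromosome 17 (5 genes, median −3.19), 4 Cd200r genes on chromosome 16 (5 genes, median −3.05), and Gata1 with 3 neighbours on the X chromosome (4 genes, median −2.87). The rising run was Snhg12 with the small nucleolar RNA genes inside it, on chromosome 4 (5 genes, median 1.46).

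Library differences within C16 fell on some lists and not on others. Among 302 genes that fell past 8-fold from at least 5 CPM, the median share of the DMSO level left was 8.68%, 11.6% and 1.48% in C16 replicates 1, 2 and 3, and replicate 3 was lowest for 290. Over 220 genes that rose past 2-fold the median ratio to DMSO was 2.21, 2.19 and 2.42. List medians of mitochondrial ribosomal proteins were 0.54, 0.54 and 0.53, and those of splicing factors 0.46, 0.48 and 0.50. Interferon response genes instead had medians of 0.22, 0.05 and −1.55, and Schlafen genes 0.46, 0.34 and −1.47. Their summed interferon level was 3349, 3173 and 1924 CPM in DMSO replicates 1, 2 and 3 and 2987, 2724 and 900.0 CPM in C16 replicates 1, 2 and 3, so replicate 3 was lowest in both groups. Of 34 interferon genes 3 fell and 0 rose. Without C16 replicate 3, 3 fell and 4 rose. With both replicate 3 libraries left out, 6 fell and 2 rose. Oasl1, an interferon-induced gene, was at 62.1, 64.2 and 37.2 CPM under DMSO and 46.4, 39.6 and 1.65 CPM under C16 (log2 −0.89 ± 0.70, adjusted p = 0.28). Genes of the Ms4a family rose in 5 of 10 cases, or 8 without C16 replicate 3: Ms4a4c was at 15.4, 14.3 and 11.3 CPM under DMSO and 45.1, 44.01 and 16.8 CPM under C16 (1.37 ± 0.35).

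**Figure D3:**
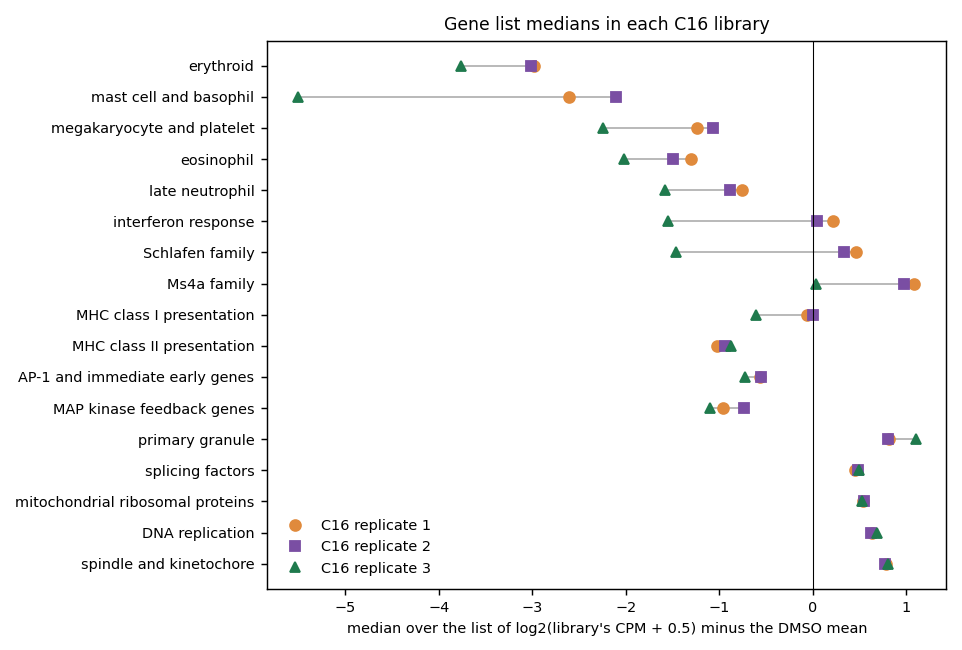
Median over each list (rows) of the difference between a C16 library and the DMSO mean, on the scale log2(CPM + 0.5), for C16 replicates 1 (circle), 2 (square) and 3 (triangle). The 3 marks coincide for growth lists such as mitochondrial ribosomal proteins (0.54, 0.54 and 0.53) and part for interferon genes (0.22, 0.05 and −1.55).

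**Figure D4:**
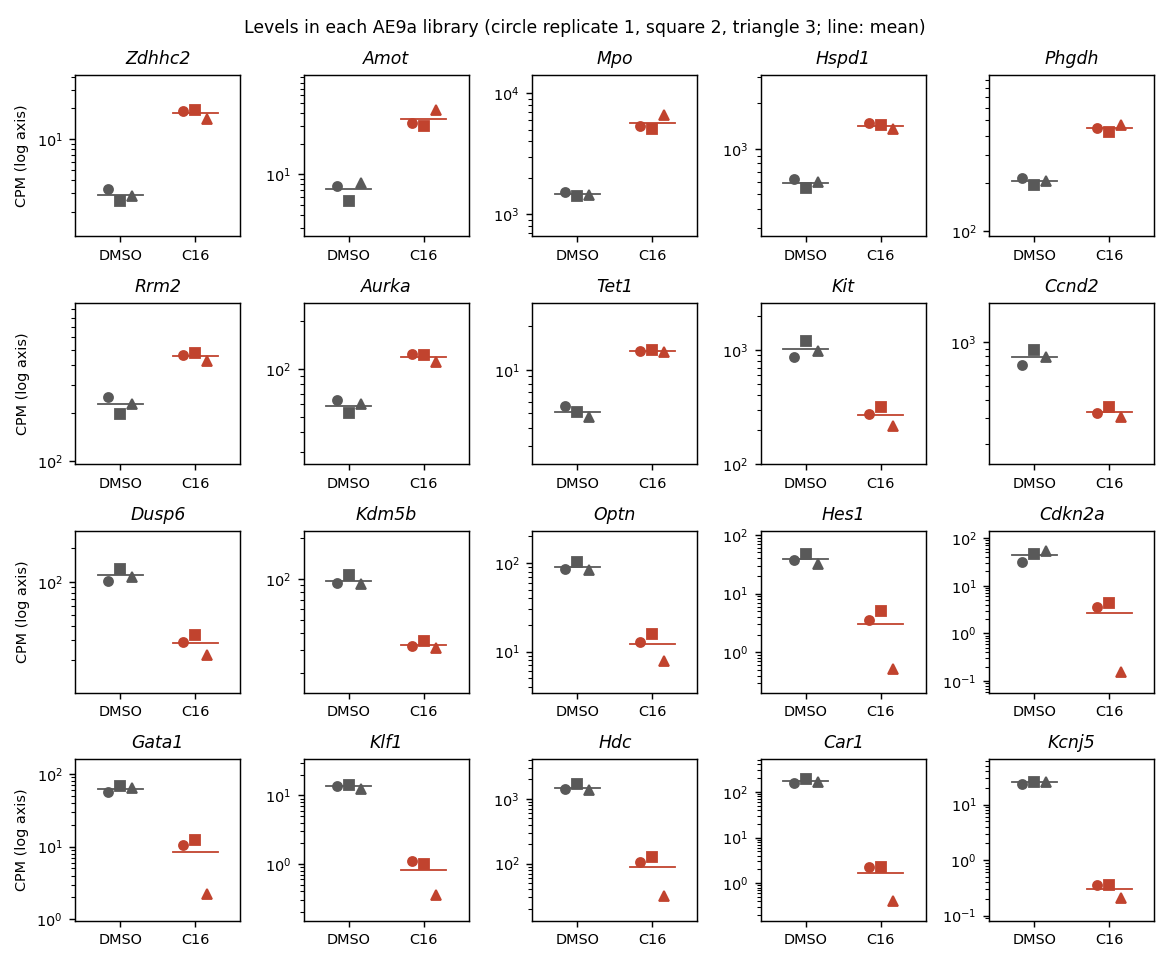
Level in CPM (vertical log axis) of 20 genes in each of the 3 DMSO (grey) and 3 C16 (red) libraries of AE9a cells, with a line at the group mean. No gene shown overlaps between groups, and C16 replicate 3 (triangle) is far below the other C16 libraries for Cdkn2a, Hes1 and Gata1 but not for Tet1 or Kdm5b.

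Among the 10 called genes highest per length, Eef1a1, an elongation factor, led in both groups, at 4732 ± 90.0 FPKM (fragments scaled to exon length and library size) under DMSO and 5091 ± 71.3 FPKM under C16. Ftl1, ferritin light chain, came next, at 3773 ± 245 and 3385 ± 42.1 FPKM. The call of Eef1a1 was lost in 9 alternatives, among them without any of the 3 C16 libraries and without DMSO replicate 1 or 3 (edgeR adjusted p up to 0.123). Within the 10, Cma1 went from the third place (2599 ± 650.1 FPKM) to the tenth (224 ± 189.5 FPKM), and Mpo from the tenth (572 ± 20.5 FPKM) to the sixth (2235 ± 324 FPKM). Under DMSO, Cma1 did not part from ND1 (2354 ± 130 FPKM) beyond its SD, and under C16 neither did Mpo from Ppia (2315 ± 104 FPKM). Common reference genes moved as well, 12 of 15 rising and 2 falling, with a median log2 change of 0.26. Tubb5, a tubulin, was up by 0.73 ± 0.04 and Actb, beta-actin, at −0.23.

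Set directly against RE in the same AE9a cells, C16 libraries were higher for 5511 genes (37.5%) and lower for 5465 (37.2%), 10976 in all (74.6%). Growth lists stood higher: 42 of 43 DNA replication genes (median 1.15), 29 of 29 spindle genes (median 1.34), 24 of 25 nucleotide synthesis genes (median 1.10) and 51 of 53 splicing genes (median 0.65). Lower were 22 of 24 erythroid genes (median −3.01), 16 of 19 mast cell genes (median −3.42), 22 of 26 immediate early genes (median −1.17) and 9 of 13 MAP kinase feedback genes (median −1.63). Mpo stood at 5692 ± 825 CPM under C16 and 764 ± 61.1 CPM under RE (log2 2.90, adjusted p = 1.4e-07), and Dusp6 differed by −2.64, adjusted p = 4.3e-07. The contrast shares its C16 libraries with that against DMSO.

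The C16 change in AE9a cells minus that in WT cells, tested in a fit of all 18 libraries, was above 0 for 755 of 15809 genes (4.78%) and below 0 for 1310 (8.29%). Of 24 erythroid genes the AE9a change was the lower for 17, of 39 blood transcription factors for 11 and of 37 actin and adhesion genes for 10. It was the higher for 12 of 40 lysosomal genes and 11 of 29 pattern recognition genes. Car1 differed by −7.13, adjusted p = 7.7e-05, and Optn differed by −3.12, adjusted p = 2.4e-04. Of growth lists few genes differed, 2 of 43 for DNA replication and 2 of 53 for splicing, which does not show that these changes were equal. These counts changed with WT replicate 2, whose C16 library lay 0.451 to 0.514 from the AE9a C16 libraries while WT C16 replicates 1 and 3 lay 0.871 to 1.03 from them. The fit includes the library labelled AE9a C16 replicate 3, which went against its label for Runx1t1, and without it 432 genes were above 0 and 958 below. Without the WT replicate 2 libraries 4656 genes were above 0 and 3382 below. Genotypes came as separate tables, and the labels name no library batch. Whether batches differed between genotypes is thus not known, and their part in these counts was not tested.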

How the data were processed

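Total RNA of cKit-positive bone marrow cells was sequenced, per the labels, in libraries made by a service provider. The authors deposited whole-number counts of fragments per gene for 41079 genes of GRCm39 as a table per genotype, and 0 columns were left unmatched. The submitters' processing notes list HISAT2 2.1.0, fastp 0.23.2, FastQC 0.11.9, DESeq2, and Subread with featureCounts 2.0.3. Per the file headers, featureCounts 1.6.2 counted exon fragments of primary alignments by gene without regard to strand, and did not count fragments over more than 1 gene. Exons of 4622 of the 14704 tested genes overlap another gene, so those values are uncertain. Gene length in the deposited tables, a value in bases, gave FPKM. The 6 libraries compared held 19493511 to 27207748 fragments, and limits from counts cover counting error only.

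Genes passing filterByExpr in the 9 AE9a libraries were scaled by TMM and tested with edgeR 4.0.16 (R 4.3.3) quasi-likelihood F tests. P values were adjusted over all 14704 genes by Benjamini-Hochberg, with a threshold of 0.05. The 3 AE9a groups shared 1 estimate of spread (biological coefficient of variation 0.103). The genotype difference was tested over 15809 genes in all 18 libraries. Counts of 14409 genes were simulated for C16 against DMSO. Of 100 genes changed 2-fold 87% were recovered, and of 100 changed 4-fold 98%, with 7 unchanged genes called. No other simulated gene changed, directions were random and libraries varied independently. In the data 66.3% of genes were called, so the simulation does not test scaling or false calls under so many changes. DESeq2 1.42.0, limma 3.58.1 with voom, other scalings, filters, sets of libraries, replicate blocks and leaving out each library were alternatives, and leaving out both AE9a replicate 3 libraries was chosen after seeing the data.

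Members and gene lists (78, of which 13 of cell types) were chosen with earlier results of these data known. The list of mitochondrial genome genes as first written matched no symbol and was replaced by the names of the table. Lists were described by counts and medians. Named genes were the 15 largest rises and falls without overlap from at least 5 CPM, up to 4 called genes per list with the largest change and at least 1 CPM and up to 2 against its trend, 12 genes set by name, the 10 called genes highest per length, 5 with no fragments in a group and 5 of widest C16 spread. Genes named in the promoter and neighbour results beyond these were chosen after their values were seen. Some genes that the rule names are not reported here.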

Additional observations from a re-analysis of the deposited data

Results flagged for a closer look

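The C16 change differed between genotypes, by the interaction test in edgeR over all 18 libraries, for 2065 genes (13.1% of those tested), 755 with a higher and 1310 with a lower change in AE9a cells. This count moves with WT replicate 2, as given for the settings that follow. The labels name no batch, so whether batches differed between genotypes is not known.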

How the results depend on the processing

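The counts of 4870 rises and 4875 falls under C16 stayed within 1.5 times in every alternative run. Between 72.9% (all 18 libraries) and 99.6% (upper-quartile scaling) of the 9745 calls were made again, and 0 took the opposite direction. Of 6375 values of named genes under alternatives 6186 stayed on their side of the threshold, 187 lost the call, 2 gained it and 0 reversed. Of 396 called named genes 75 lost the call in at least 1 alternative, 47 of them only in the fit of all 18 libraries.

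The genotype difference was unstable. Genes with a higher change in AE9a cells, 755, numbered 4656 without the WT replicate 2 libraries, 3070 with the replicate block and 291 to 3642 on leaving out 1 library, the highest count without WT C16 replicate 2 and the lowest without AE9a DMSO replicate 2. Of the 12 C16 and DMSO libraries left out in turn, each other than WT DMSO replicate 1 moved it by over 1.5 times, and the RE libraries were not left out. Genes with a lower change, 1310, numbered 1977 by DESeq2, 3382 without the WT replicate 2 libraries, 2743 with the replicate block and 793 to 2752 on leaving out 1 library. The cause was not tested.

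In the 18-library fit, where the coefficient of variation was 0.243, fewer genes passed. Rises numbered 6 for glycolysis, 9 for glutathione and pentose phosphate enzymes, 3 for Ms4a genes, 3 for HOX genes, 4 for primary granule, 2 for monocyte and 3 for mitochondrial genome genes. Falls numbered 2 for the ATF4 list, 3 for cholesterol, 7 for heme, 6 for histones, 4 for the BCL2 family, 2 for p53 targets, 10 for immediate early genes, 6 for NF-kB, 8 for chemokines, 5 for integrins, 10 for actin, 12 for Rab GTPases, 12 for myeloid lectins, 6 for serpins and stefins, 67 for Zfp genes, 2 for platelet and 3 for endothelial genes. On leaving out 1 library, falls of cholesterol genes ran from 6 to 11, rises of Ms4a genes from 5 to 8, of HOX genes from 3 to 5, of monocyte genes from 3 to 7 and of mitochondrial genome genes from 5 to 9.

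Deviations of same-numbered DMSO and C16 libraries correlated by −0.02, 0.45 and 0.24 over genes, and those of differently numbered libraries by −0.39 to 0.26. The coefficient of variation was 0.0819 with a replicate block and 0.103 without it. Whether the numbers pair the libraries is thus not known. With the replicate block 4969 genes rose and 4964 fell under C16, and in the interferon list 4 rose and 12 fell. Low depth limits genes near 0.11 to 0.154 CPM.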
